A study of Mus musculus with 27 samples.

Results

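The 37 genes described here are interferon-induced genes, chosen by name: 7 immunity-related GTPases (the IRG family), 6 guanylate-binding proteins (the GBP family), 4 transcription factors, 4 sensors of nucleic acids, 15 other effectors and regulators, and the chemokine Cxcl10. All 37 passed the filter on low values, a normalised read count of at least 10 in at least 3 of 27 libraries, and are 37 of the 15932 genes tested and of the 45706 genes in the table. The livers came from wild-type (WT) mice of the strain given as C57/BLN6, and each of the 9 groups held 3 biological replicates. All mice had been fasted for 16 h. One group was taken at that point (fasted), 4 groups were taken 30, 60, 120 and 240 min after food was returned (refed), and 4 groups were taken at the same times with food in a cage (caged food). The title of the series names sensory perception of food as its subject, so the caged food groups stand for food that was sensed. The caged food mice had therefore gone without food for longer than the fasted group, and refeeding and time since the end of the fast cannot be told apart in a comparison of refed with fasted livers. The comparison of refed with caged food livers is matched for time.

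Interferons are secreted proteins that cells release when they sense foreign nucleic acids or microbes. Type I and type III interferons signal through receptors and Janus kinases to a complex that includes Stat2 and Irf9 and binds the interferon-stimulated response element (ISRE) in the promoters of its target genes. Type II interferon acts through the gamma-activated site (GAS), and Irf1 is one of its early targets. The induced proteins block viral replication, mark the vacuoles of intracellular parasites, sense nucleic acids or limit the signal itself, and in the liver they are made by hepatocytes as well as by Kupffer cells, the resident macrophages.

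Promoter sequences bear on these genes because the members are grouped by a shared mode of control. RefSeq windows of 300 bases on GRCm38.p6, from 250 bases before to 50 bases after an annotated start, were found for 29 of the 37 genes, in 33 windows. The ISRE was searched as 2 copies of GAAA with any 2 bases between them and the GAS as TTCNNNGAA, each on both strands, and either could overlap other matches. At least 1 ISRE match lay in 19 of the 33 windows (57.58%), compared with 3.443% of all 32851 windows. A GAS match lay in 9 of the 33 windows (27.27%), compared with 8.298% of all windows, and 7 windows (21.21%) held both, compared with 0.4536%. The 5 windows shown are those of Isg15 and Stat2, with an ISRE alone, of Igtp, with both motifs, of Irf1, with a GAS alone, and of Oasl1, which had the highest fold change of all members and no match. Capitals mark the matches, on either strand, and overlapping matches run together.
Isg15, chr4:156200769-156201068, minus strand: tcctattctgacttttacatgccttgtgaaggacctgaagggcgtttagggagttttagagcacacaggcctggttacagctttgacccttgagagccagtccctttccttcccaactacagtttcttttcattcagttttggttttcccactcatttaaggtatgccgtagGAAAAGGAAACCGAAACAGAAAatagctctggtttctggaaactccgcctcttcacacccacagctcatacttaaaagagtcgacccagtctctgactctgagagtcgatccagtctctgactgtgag
Stat2, chr10:128270248-128270547, plus strand: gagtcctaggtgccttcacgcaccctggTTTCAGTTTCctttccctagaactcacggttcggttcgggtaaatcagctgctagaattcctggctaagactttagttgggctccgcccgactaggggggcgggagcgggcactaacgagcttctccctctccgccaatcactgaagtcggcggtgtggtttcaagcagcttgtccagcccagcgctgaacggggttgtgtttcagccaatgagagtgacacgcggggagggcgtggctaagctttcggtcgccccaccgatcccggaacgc
Igtp, chr11:58199306-58199605, plus strand: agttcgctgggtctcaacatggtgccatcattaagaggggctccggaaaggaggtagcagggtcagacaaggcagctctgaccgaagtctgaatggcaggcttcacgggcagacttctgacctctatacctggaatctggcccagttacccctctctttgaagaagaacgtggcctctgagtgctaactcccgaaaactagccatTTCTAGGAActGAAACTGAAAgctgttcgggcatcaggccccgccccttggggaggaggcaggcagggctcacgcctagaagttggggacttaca
Irf1, chr11:53769764-53770063, plus strand: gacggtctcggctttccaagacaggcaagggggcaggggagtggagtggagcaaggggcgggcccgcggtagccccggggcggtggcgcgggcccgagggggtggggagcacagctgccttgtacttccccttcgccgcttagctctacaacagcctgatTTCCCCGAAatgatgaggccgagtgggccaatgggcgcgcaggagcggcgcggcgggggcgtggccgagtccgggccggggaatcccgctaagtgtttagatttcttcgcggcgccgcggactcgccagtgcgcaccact
Oasl1, chr5:114922990-114923289, plus strand: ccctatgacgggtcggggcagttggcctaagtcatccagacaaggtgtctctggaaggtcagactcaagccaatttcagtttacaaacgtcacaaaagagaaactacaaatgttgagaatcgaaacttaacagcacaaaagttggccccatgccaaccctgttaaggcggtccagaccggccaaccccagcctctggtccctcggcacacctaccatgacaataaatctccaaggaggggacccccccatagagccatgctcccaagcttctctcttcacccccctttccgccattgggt

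The Isg15 window held 3 overlapping ISRE matches, the first of them beginning 78 bases before the start. The ISRE match of Stat2 lay farther away, 222 bases before the start, and that of Igtp began 34 bases before it, next to a GAS match at 45 bases. The GAS match of Irf1 began 90 bases before the start. An ISRE match was found for 10 of the 16 genes with a window that were higher in refed than in caged food livers at 240 min, and for 9 of the other 13.

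The libraries held an estimated 25.5 to 52.4 M counted reads, with a median of 46.8 M, and 19790 to 21068 genes above 0. The shallowest were all of 240 min: caged food replicate 3 (25.5 M), refed replicate 3 (28.9 M) and caged food replicate 2 (31.2 M). The next was refed 30 min replicate 1, at 37.8 M. The liver genes Alb and Apoa1 were at 2293389 to 4761810 and 400590 to 623068 in every library. For 2 libraries of 240 min, caged food replicate 1 and refed replicate 3, the label for treatment and the title disagree, 1 giving refed and the other caged food. Titles were used: a score over 200 other genes, chosen for their difference at 120 min, was 0.77, 0.57 and 0.50 in the 3 libraries titled refed and -0.64, -0.61 and -0.59 in those titled caged food. These 200 genes were ranked by p in the fit of all libraries grouped by title. Its estimate of spread includes the 240 min libraries, so the score is not fully independent of the titles. Each result at 240 min rests on these titles, and no call of refed against caged food or fasted livers at 240 min, on a member or a listed gene, was kept when these 2 libraries were grouped by the treatment label. Refed 240 min replicate 1 also stands apart, and results are given without it.

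At 240 min, 22 of the 37 interferon-induced genes (59.5%) were higher in refed than in caged food livers and none was lower, where 14.6% of all genes tested were called higher and 12.4% lower (limma, adjusted p under 0.05). The median log2 fold change of the 37 genes was 0.68, compared with -0.0045 over all genes tested, and 35 of the 37 values were above 0. In 21 of the 37 genes every refed library lay above every caged food library, which held for 21.3% of all genes. The called genes included all 4 nucleic acid sensors, 5 of 7 IRG GTPases, 9 of 15 effectors and regulators, 2 of 4 transcription factors and 2 of 6 guanylate-binding proteins. Cxcl10 was not called. Against the fasted livers, 18 genes were higher at 240 min and none was lower (12.9% of all genes were called higher and 11.4% lower), with a median of 0.44. Without refed 240 min replicate 1, 14 genes were called against caged food, all among the 22, with a median of 0.50. Against fasted livers 10 were then called, with a median of 0.25. In that fit 19.12% and 16.26% of all genes were called in either direction, compared with 27.01% and 24.35% with all libraries. When the 2 libraries with conflicting labels were left out, 15 and 16 genes were called, where 19.74% and 20.68% of all genes were. When these were grouped by the treatment label, limma called 0 genes in both comparisons, with 2 and 7 at an unadjusted p under 0.05. That grouping left 1 gene called of all 15932 tested against caged food and 0 against fasted livers. Under it 32 of the 37 genes were still above 0 against caged food, with a median of 0.26. The 22 genes called by title, at log2 fold changes of 0.41 to 1.32, were all above 0 by treatment label, at 0.06 to 0.68 (adjusted p = 0.680 to 0.927).

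**Figure D1:**
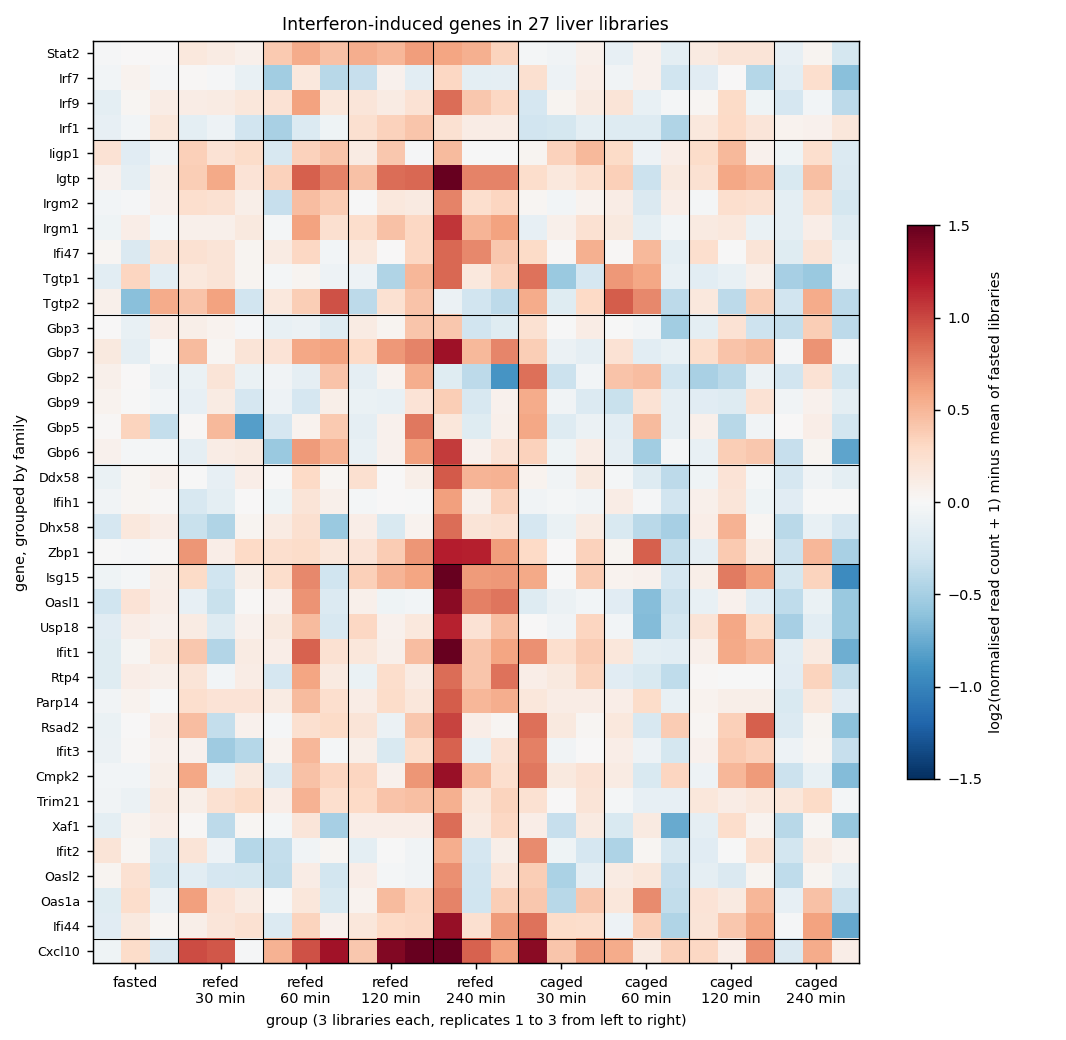
Each row is an interferon-induced gene, each column a library, and the colour is log2(normalised read count + 1) minus the mean of the 3 fasted libraries, with colours saturated beyond 1.5 in either direction. The 3 columns of refed 240 min are red in most rows, most of all replicate 1, in which 27 of the 37 genes had their highest value.

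Stat2, Irf9, Irf1 and Irf7 are the transcription factors among the 37. Stat2 (chr10:128270559-128292849, plus strand on GRCm38, as are all coordinates of genes here), the subunit that carries the activation domain of the ISRE-binding complex, was called from 60 min on. Stat2 was at 3686, 3753 and 3733 in the fasted livers and at 4148, 4072 and 3917 after 30 min, 4874, 5460 and 5032 after 60 min, 5440, 5258 and 5751 after 120 min and 5626, 5407 and 4679 after 240 min of refeeding. With caged food, Stat2 was at 3662, 3588 and 3941 after 30 min, 3411, 3896 and 3352 after 60 min, 4092, 4261 and 4264 after 120 min and 3433, 3831 and 3100 after 240 min. The refed livers lay above the caged food livers at 60, 120 and 240 min with no overlap, and above the fasted livers at all 4 times. Stat2 rose against fasted livers by a log2 fold change of 0.46 ± 0.08 (adjusted p = 3.17e-04) at 60 min, 0.56 ± 0.08 (adjusted p = 3.28e-05) at 120 min and 0.49 ± 0.08 (adjusted p = 7.25e-05) at 240 min. Against caged food at the same times the values were 0.53 ± 0.08 (adjusted p = 7.02e-05), 0.38 ± 0.08 (adjusted p = 0.00212) and 0.60 ± 0.08 (adjusted p = 4.75e-06). At 30 min it differed by 0.12 ± 0.08 (adjusted p = 0.802) and was not called. Averaged over the 4 times, Stat2 had the lowest p of all members, 0.41 ± 0.04 (adjusted p = 3.44e-08). With refed 240 min replicate 1 left out, the difference at 240 min was 0.55 (adjusted p = 1.02e-04). Grouped by the treatment label, it was 0.30 (adjusted p = 0.680).

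Irf9, the DNA-binding subunit of the same complex, was called only at 240 min and in the average over time. Irf9 was at 2245, 2534 and 2673 in the fasted livers and at 2682, 2696 and 2787 after 30 min, 2889, 3765 and 2795 after 60 min, 2811, 2708 and 2880 after 120 min and 4422, 3268 and 3063 after 240 min of refeeding. With caged food, Irf9 was at 2088, 2553 and 2715 after 30 min, 2832, 2292 and 2432 after 60 min, 2534, 3027 and 2362 after 120 min and 2079, 2412 and 1890 after 240 min. The refed mean at 240 min was 3584 ± 733 (SD, n = 3) and the caged food mean 2127 ± 264 (SD, n = 3), with no overlap. The log2 fold change was 0.74 ± 0.13 (adjusted p = 2.36e-04) against caged food and 0.51 ± 0.13 (adjusted p = 0.00694) against fasted livers. Leaving out refed 240 min replicate 1 gave 0.58 (adjusted p = 0.00372) against caged food and 0.35 (adjusted p = 0.0767) against fasted livers, which ends that call. By treatment label Irf9 differed from caged food by 0.37 (adjusted p = 0.683). An exon of Irf9 shares 123 bases with Rnf31 on the same strand, so reads there cannot be assigned to either gene.

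Irf1, a factor that binds the same element, was high at 120 min in both the refed and the caged food livers. Irf1 was at 1626, 1717 and 1989 in the fasted livers and at 1598, 1680 and 1450 after 30 min, 1267, 1534 and 1697 after 60 min, 2087, 2255 and 2366 after 120 min and 2067, 1910 and 1916 after 240 min of refeeding. With caged food, Irf1 was at 1450, 1475 and 1595 after 30 min, 1543, 1543 and 1294 after 60 min, 1980, 2178 and 2006 after 120 min and 1838, 1847 and 2000 after 240 min. Both groups of 120 min lay above both groups of 60 min, with no overlap. From 60 to 120 min Irf1 rose by 0.58 ± 0.10 (adjusted p = 7.49e-04) in refed livers and by 0.50 ± 0.10 (adjusted p = 0.0122) with caged food (steps between times were compared after seeing the data). These steps were called for 1 of the 37 genes each, where 2.17% and 0.483% of all genes tested were called higher. The step with caged food was not called without caged food 120 min replicate 2 (adjusted p = 0.0593) or replicate 3 (adjusted p = 0.0534). It was also not called in a fit of the compared groups alone (adjusted p = 0.162). Nor was it without the 4 libraries that stood apart in earlier results (adjusted p = 0.0904). The call of Irf1 against fasted livers at 120 min was lost without fasted replicate 1 or 2 or refed replicate 2 or 3 (adjusted p = 0.0641 to 0.110). Refed and caged food livers differed in Irf1 by 0.12 ± 0.10 (adjusted p = 0.50) at 120 min and 0.05 ± 0.10 (adjusted p = 0.740) at 240 min. Irf7, the factor that amplifies type I interferon production, was called in no comparison. Irf7 was at 2157, 2299 and 2180 in the fasted livers and at 2230, 2192 and 2053 after 30 min, 1546, 2469 and 1661 after 60 min, 1736, 2312 and 1977 after 120 min and 2745, 2002 and 2014 after 240 min of refeeding. With caged food, Irf7 was at 2604, 2097 and 2373 after 30 min, 2138, 2320 and 1793 after 60 min, 1971, 2218 and 1649 after 120 min and 1977, 2624 and 1428 after 240 min. Its groups overlapped at 240 min, with a log2 difference of 0.19 ± 0.18 (adjusted p = 0.477) between refed and caged food livers.

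**Figure D2:**
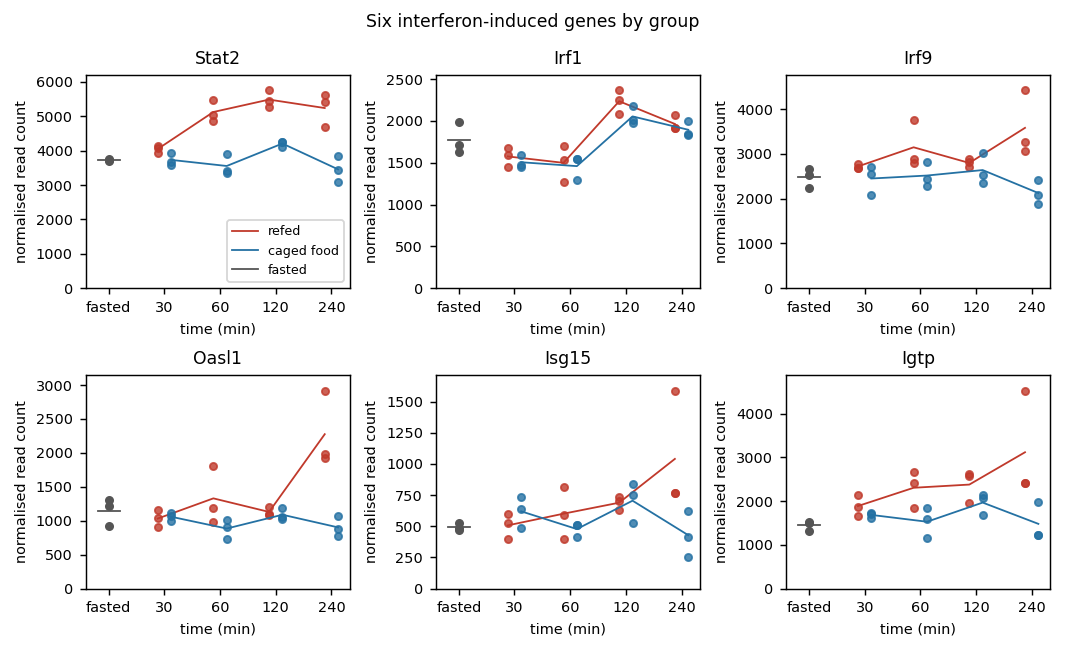
Normalised read counts of 6 genes in each library (points) by time, with lines through the group means of refed (red) and caged food (blue) livers and a bar at the fasted mean (grey). Stat2 separates from 60 min on, Oasl1, Isg15, Irf9 and Igtp separate at 240 min, and Irf1 is highest in both groups at 120 min.

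The sensors of nucleic acids were all higher in refed than in caged food livers at 240 min. Ddx58 (chr4:40203773-40239828, minus strand), which encodes RIG-I, a helicase that binds viral RNA ends, was the sensor with the lowest p. Ddx58 was at 1917, 2100 and 2148 in the fasted livers and at 2047, 1889 and 2201 after 30 min, 2050, 2517 and 2102 after 60 min, 2420, 2062 and 2173 after 120 min and 3896, 2915 and 2946 after 240 min of refeeding. With caged food, Ddx58 was at 2133, 1972 and 2264 after 30 min, 2011, 1796 and 1563 after 60 min, 1958, 2359 and 2009 after 120 min and 1719, 1976 and 1848 after 240 min. The 3 refed livers of 240 min held the highest values of all 27 libraries. Ddx58 rose by 0.80 ± 0.11 (adjusted p = 1.21e-05) against caged food and by 0.65 ± 0.11 (adjusted p = 1.71e-04) against fasted livers. It was 1 of 3 members that rose from 120 to 240 min of refeeding (0.860% of all genes), by 0.54 ± 0.11 (adjusted p = 0.0133), a step that was not called without refed 240 min replicate 1 (log2 fold change 0.40, adjusted p = 0.108). That step was also not called without refed 120 min replicate 2 (adjusted p = 0.0559) or replicate 3 (adjusted p = 0.0614). The difference of Ddx58 from caged food was 0.29 (adjusted p = 0.734) by treatment label.

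Zbp1, a sensor of Z-form nucleic acid that can trigger necroptosis, had 1 caged food library of 240 min near the refed range. Zbp1 was at 322, 319 and 328 in the fasted livers and at 512, 347 and 397 after 30 min, 384, 391 and 363 after 60 min, 371, 420 and 510 after 120 min and 730, 728 and 501 after 240 min of refeeding. With caged food, Zbp1 was at 396, 325 and 410 after 30 min, 332, 600 and 249 after 60 min, 294, 424 and 351 after 120 min and 258, 456 and 230 after 240 min. The groups of 240 min did not overlap, though caged food replicate 2 was at 456, close to the lowest refed library at 501. Zbp1 rose by 1.10 ± 0.25 (adjusted p = 0.00211) against caged food and by 0.99 ± 0.25 (adjusted p = 0.00536) against fasted livers. Dhx58, which encodes the regulator LGP2, was at 1464, 938 and 960 in refed and 616, 758 and 685 in caged food livers at 240 min, a log2 difference of 0.68 ± 0.19 (adjusted p = 0.0109). Ifih1, which encodes MDA5, a sensor of long double-stranded RNA, was at 3227, 2215 and 2677 and 1861, 2091 and 2088, a difference of 0.41 ± 0.11 (adjusted p = 0.00666). Neither of these last 2 genes was called without refed 240 min replicate 1, with 0.47 (adjusted p = 0.102) for Dhx58 and 0.28 (adjusted p = 0.0755) for Ifih1. Without caged food 240 min replicate 1, Dhx58 was also not called (adjusted p = 0.0536). By treatment label, refed minus caged food was 0.46 for Zbp1, 0.25 for Dhx58 and 0.06 for Ifih1 (adjusted p = 0.747, 0.800 and 0.924).

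The IRG GTPases coat the vacuoles of intracellular parasites, and they include the most abundant members. Per kb of exon, the mean over all libraries was 2263 for Iigp1, 977 for Igtp and 954 for Irgm2, compared with 12.1 for Tgtp1 and 6.34 for Tgtp2. Igtp (chr11:58199556-58207591, plus strand), also called Irgm3, a regulator of the other IRG proteins, was called against fasted livers from 60 min on. Igtp was at 1505, 1309 and 1512 in the fasted livers and at 1862, 2132 and 1665 after 30 min, 1831, 2672 and 2409 after 60 min, 1954, 2566 and 2611 after 120 min and 4524, 2416 and 2408 after 240 min of refeeding. With caged food, Igtp was at 1730, 1607 and 1713 after 30 min, 1839, 1149 and 1594 after 60 min, 1682, 2148 and 2066 after 120 min and 1231, 1970 and 1235 after 240 min. All refed livers of all times lay above the 3 fasted livers. The log2 fold change against fasted livers was 0.66 ± 0.21 (adjusted p = 0.0489) at 60 min, 0.71 ± 0.21 (adjusted p = 0.0279) at 120 min and 1.05 ± 0.21 (adjusted p = 9.03e-04) at 240 min. With caged food Igtp was also above every fasted value at 30 and 120 min, and of the 4 times refed and caged food livers differed by a called amount at 240 min alone, 1.04 ± 0.21 (adjusted p = 7.95e-04). That difference was 0.74 (adjusted p = 0.0111) without refed 240 min replicate 1. It was 0.40 (adjusted p = 0.763) when libraries were grouped by the treatment label. The calls at 60 and 120 min rest on few libraries: leaving out any 1 fasted library, or refed replicate 2 or 3 of that time, took each adjusted p above the threshold, to between 0.0563 and 0.172.

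Irgm1 (chr11:48861968-48871683, minus strand), a regulator that guards self membranes from other IRG proteins, was called in both comparisons of 240 min. Irgm1 was at 2887, 3249 and 2968 in the fasted livers and at 3189, 3188 and 3357 after 30 min, 2963, 4598 and 3583 after 60 min, 3649, 4113 and 3748 after 120 min and 6365, 4301 and 4604 after 240 min of refeeding. With caged food, Irgm1 was at 2786, 3185 and 3540 after 30 min, 3362, 2737 and 2950 after 60 min, 3329, 3388 and 2827 after 120 min and 2748, 3241 and 2655 after 240 min. The lowest refed liver of 240 min, at 4301, lay above every fasted and caged food library. Irgm1 rose by 0.80 ± 0.14 (adjusted p = 1.42e-04) against caged food and by 0.73 ± 0.14 (adjusted p = 4.71e-04) against fasted livers, and by 0.63 (adjusted p = 0.00223) against caged food without refed 240 min replicate 1. Ifi47, a further IRG protein, was called at 240 min and at no earlier time. Ifi47 was at 712, 602 and 800 in the fasted livers and at 819, 800 and 720 after 30 min, 762, 871 and 683 after 60 min, 784, 700 and 870 after 120 min and 1269, 1158 and 925 after 240 min of refeeding. With caged food, Ifi47 was at 854, 706 and 1017 after 30 min, 707, 979 and 633 after 60 min, 833, 695 and 801 after 120 min and 615, 799 and 646 after 240 min. Its 2 groups of 240 min did not overlap, and the log2 fold change was 0.70 ± 0.16 (adjusted p = 0.00202). By treatment label, the difference from caged food was 0.31 for both Irgm1 and Ifi47 (adjusted p = 0.734 and 0.733).

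Irgm2, the third regulator, was close to the threshold. Irgm2 was at 3119, 3181 and 3370 in the fasted livers and at 3851, 3782 and 3424 after 30 min, 2545, 4448 and 4181 after 60 min, 3203, 3581 and 3551 after 120 min and 5407, 3838 and 4016 after 240 min of refeeding. With caged food, Irgm2 was at 3276, 3129 and 3333 after 30 min, 3469, 2769 and 3449 after 60 min, 3167, 3825 and 3764 after 120 min and 2903, 3805 and 2687 after 240 min. At 240 min the lowest refed liver, at 3838, and the highest caged food liver, at 3805, nearly met, and the log2 fold change was 0.50 ± 0.16 (adjusted p = 0.0238). Without refed 240 min replicate 1 it was 0.34 (adjusted p = 0.167), and it was also not called without caged food replicate 1 (adjusted p = 0.0865) or replicate 3 (adjusted p = 0.118). Irgm2 and Igtp share 162 bases of exon on the same strand. Iigp1, which builds the coat on the vacuole, was the most abundant member and was called in no comparison. Iigp1 was at 13590, 10326 and 11274 in the fasted livers and at 14943, 13578 and 14142 after 30 min, 9875, 14847 and 15561 after 60 min, 12661, 15482 and 11530 after 120 min and 16215, 11625 and 11594 after 240 min of refeeding. With caged food, Iigp1 was at 12014, 14853 and 16301 after 30 min, 14175, 11055 and 12480 after 60 min, 14062, 16274 and 12200 after 120 min and 11122, 13891 and 10114 after 240 min. Refed and caged food groups overlapped at every time, and refed minus caged food was 0.16 ± 0.17 (adjusted p = 0.536) at 240 min. Tgtp1 was called at 240 min, 0.83 ± 0.30 (adjusted p = 0.0413), with 66, 40 and 46 in refed and 25, 24 and 34 in caged food livers. It was not called without refed replicate 1 or 3 or caged food replicate 1 or 2 (adjusted p = 0.0612 to 0.197). Its near copy Tgtp2 was at 15, 13 and 12 and 13, 24 and 12, and the split of reads between these copies is uncertain. Irgm2 and Tgtp1 differed from caged food by 0.18 and 0.27 (adjusted p = 0.821 and 0.864) by treatment label.

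Guanylate-binding proteins, large GTPases that assemble on pathogen membranes and are typical targets of type II interferon, had 2 genes called in at least 1 comparison. Of the 6, Gbp7 and Gbp6 were higher at 240 min in refed than in caged food livers. Gbp7 was at 512, 421 and 460 in fasted, 1120, 647 and 771 in refed and 459, 736 and 457 in caged food livers. Its log2 fold change was 0.83 ± 0.20 (adjusted p = 0.00328) against fasted livers and 0.62 ± 0.20 (adjusted p = 0.0223) against caged food, where 1 caged food library overlapped the refed range. Gbp6 was low, at 118, 59 and 65 and 44, 58 and 32, with a fold change of 0.81 ± 0.29 (adjusted p = 0.0430), and its reads may be shared with near copies such as Gbp10. Neither was called against caged food without refed 240 min replicate 1, at 0.40 (adjusted p = 0.179) and 0.50 (adjusted p = 0.269), nor without caged food replicate 1 (adjusted p = 0.111 and 0.0894) or replicate 3 (adjusted p = 0.107 and 0.198). By treatment label they differed by 0.12 and 0.44 (adjusted p = 0.913 and 0.763), and with the replicate number as a block the call of Gbp6 was lost (adjusted p = 0.0542). The other four, Gbp2, Gbp3, Gbp5 and Gbp9, were not called in any comparison. Gbp2 was below caged food at 240 min, with 220, 191 and 135 in refed and 204, 290 and 206 in caged food livers, a log2 difference of -0.37 ± 0.26 (adjusted p = 0.316). That sign turned by treatment label, at 0.03 (adjusted p = 0.983).

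Among the effectors and regulators, Oasl1 (chr5:114923240-114937915, plus strand), an oligoadenylate synthetase-like protein that restrains translation of Irf7, had the highest fold change of the 37 genes against caged food at 240 min. Oasl1 was at 924, 1307 and 1219 in the fasted livers and at 1042, 901 and 1151 after 30 min, 1189, 1812 and 987 after 60 min, 1197, 1089 and 1102 after 120 min and 2917, 1926 and 1983 after 240 min of refeeding. With caged food, Oasl1 was at 994, 1072 and 1110 after 30 min, 1013, 732 and 908 after 60 min, 1052, 1190 and 1022 after 120 min and 871, 1063 and 770 after 240 min. The 3 refed livers of 240 min held the highest values of the 27 libraries. Oasl1 rose by 1.32 ± 0.18 (adjusted p = 1.13e-05) against caged food, by 0.97 ± 0.18 (adjusted p = 4.11e-04) against fasted livers and by 0.98 ± 0.18 (adjusted p = 0.00711) from 120 to 240 min of refeeding. Without refed 240 min replicate 1 the difference from caged food was 1.13 (adjusted p = 2.17e-04), and the step from 120 min was not called (log2 fold change 0.79, adjusted p = 0.0582). By treatment label, Oasl1 differed from caged food by 0.53 (adjusted p = 0.701). The paralog Oasl2, at 526, 268 and 373 in refed and 251, 338 and 299 in caged food livers at 240 min, was called in no comparison.

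Parp14 (chr16:35832874-35871544, minus strand), an ADP-ribosyltransferase, was called in both comparisons of 240 min. Parp14 was at 2311, 2484 and 2378 in the fasted livers and at 2837, 2757 and 2746 after 30 min, 2598, 3326 and 2835 after 60 min, 2582, 2886 and 2685 after 120 min and 4476, 3373 and 3486 after 240 min of refeeding. With caged food, Parp14 was at 2687, 2578 and 2583 after 30 min, 2556, 2886 and 2206 after 60 min, 2469, 2530 and 2532 after 120 min and 2045, 2674 and 2130 after 240 min. The highest 3 values of the 27 libraries were again those of refed 240 min. It rose by 0.72 ± 0.11 (adjusted p = 2.74e-05) against caged food and 0.65 ± 0.11 (adjusted p = 1.17e-04) against fasted livers, and without refed 240 min replicate 1 by 0.60 (adjusted p = 4.64e-04) against caged food. The difference was 0.21 (adjusted p = 0.787) by treatment label. Its step from 120 to 240 min of refeeding, 0.47 ± 0.11 (adjusted p = 0.0270), was not called without that library (adjusted p = 0.178), nor without refed 120 min replicate 1 (adjusted p = 0.109) or replicate 3 (adjusted p = 0.0954).

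Isg15 (chr4:156199424-156200818, minus strand), a ubiquitin-like modifier, and Usp18, the protease that removes it and blocks the type I receptor, were both higher at 240 min. Isg15 was at 470, 482 and 523 in the fasted livers and at 600, 399 and 522 after 30 min, 590, 813 and 399 after 60 min, 630, 699 and 738 after 120 min and 1588, 764 and 769 after 240 min of refeeding. With caged food, Isg15 was at 731, 488 and 640 after 30 min, 509, 512 and 411 after 60 min, 523, 841 and 751 after 120 min and 410, 620 and 255 after 240 min. Refed replicate 1 stood far above the other two refed libraries, and no refed library of 240 min overlapped caged food. Isg15 rose by 1.28 ± 0.29 (adjusted p = 0.00188) against caged food and by 0.99 ± 0.29 (adjusted p = 0.0143) against fasted livers. Without refed 240 min replicate 1 it was 0.93 (adjusted p = 0.0252) against caged food and 0.64 (adjusted p = 0.137) against fasted livers, which ends the latter call. Usp18 was at 970, 1166 and 1138 in the fasted livers and at 1186, 951 and 1138 after 30 min, 1206, 1518 and 920 after 60 min, 1352, 1138 and 1211 after 120 min and 2414, 1260 and 1484 after 240 min of refeeding. With caged food, Usp18 was at 1091, 1047 and 1358 after 30 min, 1057, 694 and 902 after 60 min, 1243, 1628 and 1316 after 120 min and 767, 978 and 741 after 240 min. Usp18 at 240 min separated refed from caged food livers, 1.01 ± 0.20 (adjusted p = 5.74e-04), yet refed livers of 240 min overlapped caged food livers of 120 min. Against fasted livers it was 0.60 ± 0.20 (adjusted p = 0.0303), a call that was lost without refed 240 min replicate 1 (0.33, adjusted p = 0.260), without fasted replicate 1 (adjusted p = 0.116) and without fasted replicate 3 (adjusted p = 0.0566). Against caged food, Isg15 and Usp18 differed by 0.68 and 0.37 (adjusted p = 0.687 and 0.764) by treatment label.

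Rtp4, a chaperone of membrane receptors that is induced by interferon, was called at 240 min and at no earlier time. Rtp4 was at 562, 682 and 674 in the fasted livers and at 729, 619 and 688 after 30 min, 535, 960 and 701 after 60 min, 592, 762 and 696 after 120 min and 1141, 847 and 1118 after 240 min of refeeding. With caged food, Rtp4 was at 681, 707 and 802 after 30 min, 565, 543 and 489 after 60 min, 647, 636 and 632 after 120 min and 564, 802 and 493 after 240 min. The groups of 240 min did not overlap, although caged food replicate 2 at 802 was close to refed replicate 2 at 847. Rtp4 rose by 0.76 ± 0.17 (adjusted p = 0.00192) against caged food and 0.69 ± 0.17 (adjusted p = 0.00485) against fasted livers. The other 4 genes of this class called against caged food at 240 min were Ifit1 (log2 fold change 1.09 ± 0.26), which binds foreign RNA caps, Cmpk2 (1.04 ± 0.25), a mitochondrial nucleotide kinase, Xaf1 (0.75 ± 0.22), a regulator of cell death, and Ifi44 (0.79 ± 0.27). Ifit1 was at 2368, 1110 and 1249 in refed and 740, 914 and 500 in caged food livers, and Cmpk2, whose gene lies beside Rsad2, was at 1193, 688 and 576 and 387, 449 and 309. Without refed 240 min replicate 1, Ifit1 and Cmpk2 remained called (adjusted p = 0.0370 and 0.0406) and Xaf1 and Ifi44 were not (adjusted p = 0.104 and 0.226). Xaf1 was also not called without caged food replicate 3 (adjusted p = 0.0672), nor was Ifi44 without refed replicate 3 or caged food replicate 1 or 3 (adjusted p = 0.0511 to 0.252). Rsad2, an antiviral radical enzyme that shares this locus with Cmpk2, was at 2105, 1116 and 1068 and 908, 1072 and 682, where replicate 1 alone was high, and was not called. By treatment label, refed minus caged food was 0.10 for Rtp4, 0.59 for Ifit1, 0.66 for Cmpk2, 0.26 for Xaf1 and 0.35 for Ifi44, and none was called (adjusted p = 0.680 to 0.927).

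Trim21, a cytosolic antibody receptor, was called against caged food at 60 min and not at 120 or 240 min. Its values were 397, 532 and 442 in refed and 364, 342 and 341 in caged food livers at 60 min, with no overlap, and 455, 501 and 508 and 418, 401 and 413 at 120 min. The log2 fold change was 0.38 ± 0.11 (adjusted p = 0.0292) against caged food at 60 min and 0.39 ± 0.11 (adjusted p = 0.0192) against fasted livers at 120 min. At 240 min it was called against fasted livers, 0.35 ± 0.11 (adjusted p = 0.0255), and not against caged food, 0.21 ± 0.11 (adjusted p = 0.182). Each of these 3 calls was lost when single libraries were left out: at 60 min refed replicate 2 or 3 or caged food replicate 2 or 3 (adjusted p = 0.0521 to 0.166), at 120 min fasted replicate 1 or 2 or refed replicate 2 or 3 (adjusted p = 0.0675 to 0.0880), and at 240 min fasted replicate 1 or 2 or refed replicate 1 or 3 (adjusted p = 0.0523 to 0.164).

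Cxcl10, which attracts activated T cells, is a chemokine of the CXCR3 axis. Cxcl10 was at 105, 134 and 95 in the fasted livers and at 218, 211 and 109 after 30 min, 159, 215 and 265 after 60 min, 146, 289 and 427 after 120 min and 368, 205 and 168 after 240 min of refeeding. With caged food, Cxcl10 was at 284, 147 and 173 after 30 min, 163, 121 and 141 after 60 min, 137, 118 and 178 after 120 min and 95, 162 and 118 after 240 min. Its libraries scattered widely, with refed 120 min spanning 146 to 427. It rose against fasted livers by 1.24 ± 0.35 (adjusted p = 0.0179) at 120 min and 1.07 ± 0.35 (adjusted p = 0.0267) at 240 min. Against caged food it was called only as an average over the 4 times, 0.55 ± 0.17 (adjusted p = 0.0183). The call at 120 min was lost without fasted replicate 1 or 3 or refed replicate 2 or 3 (adjusted p = 0.0557 to 0.130), and that at 240 min without fasted replicate 1 or 3 or refed replicate 1 (adjusted p = 0.0719 to 0.179). Cxcl10 shares 133 bases of exon with Art3 on the opposite strand.

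**Figure D3:**
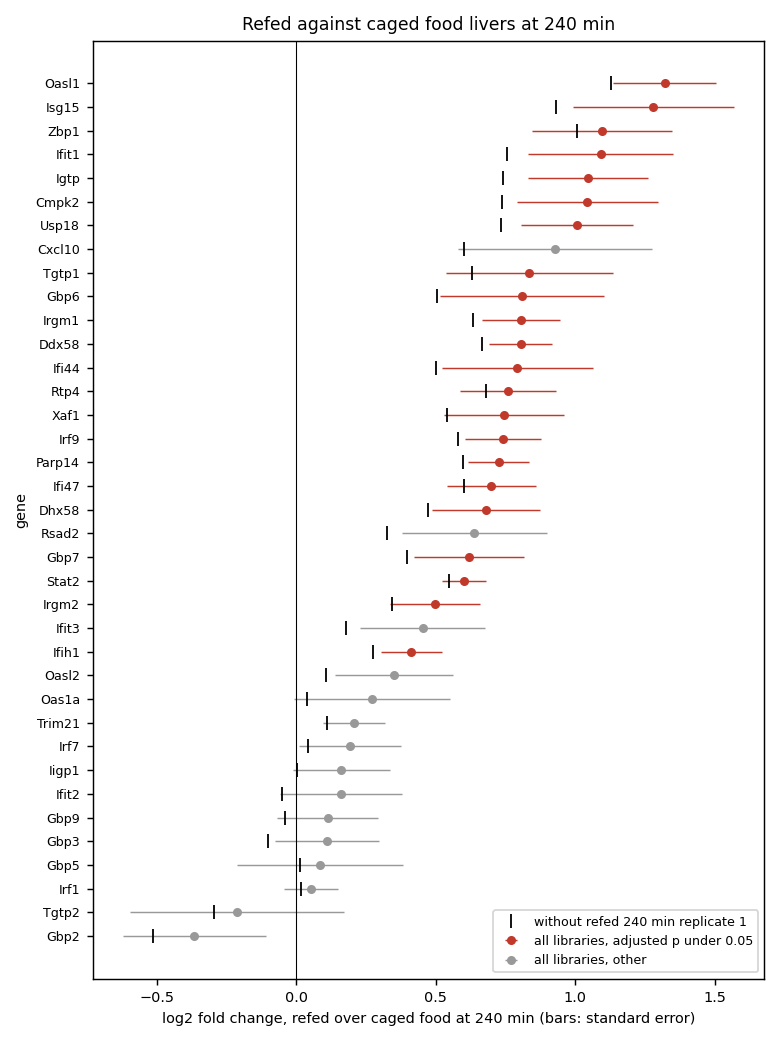
Log2 fold change of refed over caged food livers at 240 min for each of the 37 genes, with standard errors (bars) and the value without refed 240 min replicate 1 (ticks). Red points are the 22 genes called. Oasl1 and Isg15 are at the top with 1.32 and 1.28, and most ticks lie to the left of their points.

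Before 240 min few members were called. After 30 min of refeeding limma called 0 of the 37 genes against fasted livers (1.63% of all genes), with 0 at an unadjusted p under 0.05, and 0 against caged food (0.276% of all genes), with 1 at an unadjusted p under 0.05. At 60 min, 2 genes (5.41%) were higher against fasted livers, Stat2 and Igtp, where 7.26% of all genes were, and 2 (5.41%) against caged food, Stat2 and Trim21, where 6.73% of all genes were, and none was lower, where 4.18% of all genes were. At 120 min, 5 genes (13.5%) were higher against fasted livers, namely Stat2, Cxcl10, Trim21, Irf1 and Igtp, where 7.95% of all genes were, and Stat2 alone (2.70%) against caged food, where 5.98% of all genes were. The shares at 60 min and that against caged food at 120 min lay below the background. The count at 60 min against fasted livers fell to 1 without any 1 fasted library or refed 60 min replicate 2. Against caged food at 60 min it was 1 without refed replicate 2, caged food replicate 2 or caged food replicate 3, and 4 without refed replicate 1 or caged food replicate 1. The count at 120 min against fasted livers fell to 1 without fasted replicate 1, refed 120 min replicate 2 or refed 120 min replicate 3, to 2 without fasted replicate 2 and to 3 without fasted replicate 3, and that against caged food was 2 without refed 120 min replicate 1. Averaged over the 4 times, refed livers had 7 genes above the fasted livers (8.97% of all genes), 3 without any 1 of the fasted libraries, and 13 were higher than with caged food (17.3% of all genes).

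The gap between refed and caged food groups varied over the 4 times for 7 of the 37 genes (limma F test, adjusted p under 0.05), where 9.97% of all genes were called. For Oasl1 it was -0.04 ± 0.18 at 30 min, 0.55 ± 0.18 at 60 min, 0.06 ± 0.18 at 120 min and 1.32 ± 0.18 at 240 min on the log2 scale, with the value at 120 min below that at 60 min. Ddx58 had the same order, with -0.05 ± 0.11, 0.31 ± 0.11, 0.07 ± 0.11 and 0.80 ± 0.11. Of these values those at 240 min were called. Stat2 differed in shape, with 0.12 ± 0.08, 0.53 ± 0.08, 0.38 ± 0.08 and 0.60 ± 0.08. The count of 7 was 3 without refed 240 min replicate 1, caged food 240 min replicate 1 or caged food 240 min replicate 3, 11 without refed 60 min replicate 2, and 12 without caged food 240 min replicate 2.

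Caged food alone gave no call. Against fasted livers limma called 0 of the 37 genes at 30, 60, 120 and 240 min, where 0.0126%, 0.220%, 0.0377% and 0% of all genes were called, and 0 in the average over time (0% of all genes). At an unadjusted p under 0.05 there were 2, 1, 2 and 0 genes at the 4 times and 0 in the average. The median log2 fold change of the members was 0.13, -0.04, 0.14 and -0.10 at the 4 times. At 240 min with caged food 6 of the 37 values were above 0, and none of the 37 was called. The median shift of the members from the fasted mean was -0.21 and -0.27 in caged food replicates 1 and 3 and 0.13 in replicate 2. Replicate 1 is 1 of the libraries with conflicting labels.

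Replicates of 1 group differed in the common level of the 37 genes. The median log2 shift of the 37 genes from the fasted mean was 0.84 in refed 240 min replicate 1, and 0.20 and 0.33 in replicates 2 and 3. The sum of 6 pancreas enzyme transcripts was 70 in replicate 1, and 4 and 13 in the other two. This sum was 4242 in refed 30 min replicate 1, 230 in caged food 30 min replicate 2 and 84 in refed 120 min replicate 1. The shift of the 37 genes in those libraries was 0.12, -0.05 and 0.12. The part of pancreas transcripts in the result was not tested. In the caged food livers of 240 min the shift was -0.21, 0.13 and -0.27, so replicate 2 lay above the others and above 0. Caged food 30 min replicate 1 was at 0.29, with replicates 2 and 3 at -0.05 and 0.12, and Gbp2 had its highest value of all libraries there, 443. Caged food 60 min replicate 3 was at -0.25 and refed 60 min replicate 2 at 0.35. The median shift of all genes tested stayed between -0.0044 and 0.0137 in the 27 libraries.

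**Figure D4:**
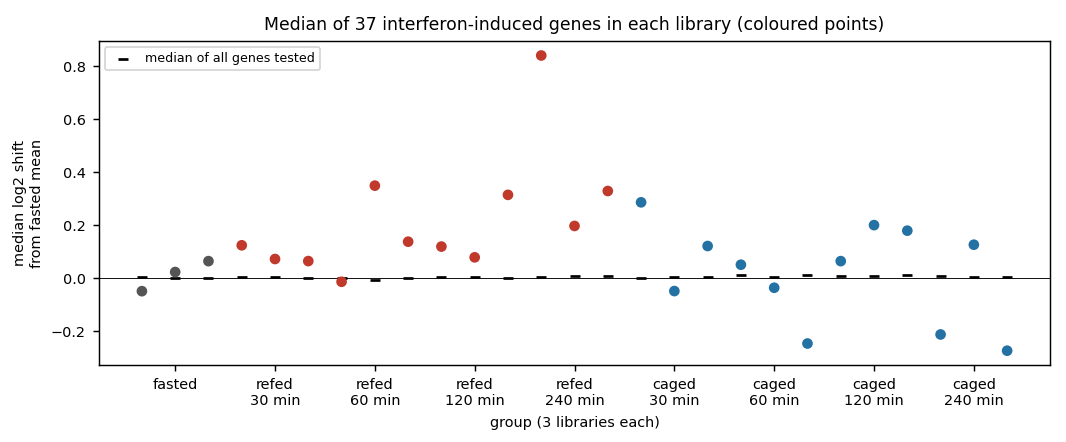
Median over the 37 genes of the log2 difference from the fasted mean, 1 point per library (grey fasted, red refed, blue caged food), with black dashes for the median of all genes tested. Refed 240 min replicate 1 is at 0.84 and no other library exceeds 0.35.

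Genes of the module that lie side by side were not always called together. The 37 genes fell on 13 chromosomes, and 19 of them lay in 7 runs with gaps under 500 kb. In the run of Ifit2, Ifit3 and Ifit1 on chromosome 19, Ifit1 was called at 240 min against caged food and the other two were not. In the run of Gbp5, Gbp7, Gbp3 and Gbp2 on chromosome 3, Gbp7 was called, and in the run of Oasl2 and Oasl1 on chromosome 5, Oasl1 was called. Of the run of Irgm1, Tgtp1, Tgtp2 and Ifi47 on chromosome 11, all but Tgtp2 were called. Whether neighbours differed from each other was not tested. Altogether 25 of the 37 genes were called in at least 1 comparison of groups, and 12 in none, namely Gbp2, Gbp3, Gbp5, Gbp9, Ifit2, Ifit3, Iigp1, Irf7, Oas1a, Oasl2, Rsad2 and Tgtp2. Reads of Ifit3 and Oas1a may be shared with the near copies Ifit3b and Oas1g.

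Upstream of these genes, interferon transcripts were at the limit of detection. Of 13 listed interferon genes none reached the filter, 9 were at 0 in all 27 libraries, and the highest values were 8 for Ifnk, 6 for Ifng, 1 for Ifnb1 and 1 for Ifnab. A count of 0 allows up to 3 reads, or 0.0572 to 0.118 per M reads, and covers counting error only. A list of the interferon receptors and the signalling below them held 10 tested genes. Of these, 2 were lower in refed than in caged food livers at 240 min (20.0%), where 12.4% of all genes were. Ifngr2, a subunit of the type II receptor, differed by -0.59 ± 0.12 (adjusted p = 4.77e-04) and Ifnar2, a subunit of the type I receptor, by -0.35 ± 0.10 (adjusted p = 0.0123). Ifnar2 was already called at 60 min against caged food, with -0.34 ± 0.10 (adjusted p = 0.0300).

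Of 10 regulators of the signal, 3 were higher and 2 lower at 240 min in refed than in caged food livers, where 14.6% and 12.4% of all genes tested were. Ptpn2, a phosphatase that limits the signal, differed by 0.48 ± 0.11 (adjusted p = 0.00188), Ptpn11, also a phosphatase, by 0.24 ± 0.08 (adjusted p = 0.0226) and Pias1, an inhibitor of the signal named here after its value was seen, by 0.17 ± 0.06 (adjusted p = 0.0468). Irf2bp2, a corepressor partner of Irf2, differed by -0.81 ± 0.21 (adjusted p = 0.00523) and Irf2, a repressor at the ISRE, by -0.44 ± 0.13 (adjusted p = 0.0131). Irf2bp2 and Irf2 were the only regulators called at 60 min against caged food, with -1.72 ± 0.21 (adjusted p = 6.61e-06) and -0.53 ± 0.13 (adjusted p = 0.00876). The counts at 240 min were 1 higher and 1 lower of 10 without refed 240 min replicate 1, namely Ptpn2 and Irf2bp2. In that fit 19.12% of all genes were called, higher and lower together. By treatment label the signs of Ptpn2 and Pias1 turned, to -0.0028 and -0.03. Of 16 genes of nucleic acid sensing pathways, 4 were higher at 240 min (14.6% of all genes were), with and without that library, namely the adaptor Traf3 (0.90 ± 0.12), the adaptor Ticam1 (0.60 ± 0.08), the kinase Ikbke (1.03 ± 0.18) and the factor Irf3 (0.33 ± 0.07), and none was lower.

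A wider list of 63 tested interferon-induced genes that are not among the 37 had 21 higher (33.3%) and 1 lower (1.59%) at 240 min against caged food, where 14.6% and 12.4% of all genes were, with a median log2 fold change of 0.30. Without refed 240 min replicate 1, 11 were higher (17.5%) and 1 was lower (1.59%), with a median of 0.17. In that fit 19.12% of all genes were called, higher and lower together. Those of lowest p were Eif2ak2 (0.83 ± 0.11), the kinase PKR that halts translation, Ifi35 (0.69 ± 0.10), Tdrd7 (0.53 ± 0.08) and Adar (0.71 ± 0.12), an RNA editing enzyme. Sp100, of the nuclear bodies, was the 1 that fell, by 0.33 on the log2 scale (adjusted p = 0.0412). Of 18 genes of antigen presentation, which type II interferon also induces, limma called 0 at 240 min against caged food, with 2 at an unadjusted p under 0.05. Against fasted livers 2 of them were lower (11.1%), where 11.4% of all genes were, and none was higher, where 12.9% of all genes were. The 2 were Psme1 (-0.26 ± 0.09, adjusted p = 0.0285) and H2-T23 (-0.31 ± 0.11, adjusted p = 0.0342). Without refed 240 min replicate 1 H2-T23 alone was called, and without the 2 libraries with conflicting labels neither was.

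Markers of other cells of the liver were read beside these results. In bulk tissue fewer cells of a type and less RNA per cell cannot be told apart. The sum of 8 Kupffer cell markers was 15415 to 16963 in refed and 12816 to 21463 in caged food livers at 240 min, and 0 of the 8 were called. The sum of 12 T and NK cell markers was 163 to 251 in refed and 199 to 277 in caged food livers, that of 6 B cell markers 288 to 416 and 394 to 514, and that of 5 dendritic cell markers 165 to 210 and 201 to 266. Of these, the dendritic cell gene Xcr1 was called and lower in refed livers, at -1.20 ± 0.35 (adjusted p = 0.0132), and not without refed 240 min replicate 1 (adjusted p = 0.0950). Neutrophil and monocyte markers summed to 242 to 317 in refed and 166 to 301 in caged food livers, with 0 of 5 tested called. Sums of 5 endothelial markers were 12221 to 12788 in refed and 13760 to 14240 in caged food livers. Those of 5 stellate cell markers were 9476 to 12571 and 13067 to 14807. Both were lower in refed livers with no overlap, which held for 20.4% of single genes tested. Grouped by the treatment label, both sums overlapped. Of these markers the endothelial gene Kdr alone was called, at -0.33 ± 0.09 (adjusted p = 0.0103), where 12.4% of all genes were called lower. Of 5 cholangiocyte markers 2 were called higher (40.0%), where 14.6% of all genes were. These were Sox9 at 0.79 ± 0.24 (adjusted p = 0.0166) and Krt19 at 0.86 ± 0.31 (adjusted p = 0.0392). Without refed 240 min replicate 1 Sox9 alone was called. The cholangiocyte sum was 1492 to 1583 in refed and 1312 to 1608 in caged food livers. Of 7 hepatocyte markers Cyp2e1 was called, at -0.55 ± 0.19 (adjusted p = 0.0370), and not without that library (adjusted p = 0.0678). At 240 min no immune marker sum was higher in refed livers without overlap, and the part of these cells in the higher interferon-induced genes was not tested. At 60 min, caged food replicate 2 stood apart in immune markers. Its Kupffer cell sum was 33560, compared with 12759 and 14652 in replicates 1 and 3. Its neutrophil and monocyte sum was 1956, compared with 126 and 227, and its B cell sum 666, compared with 252 and 347. This library is in each comparison with caged food at 60 min, and the part of its immune markers there was not tested.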

How the data were processed

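Liver RNA was sequenced from stranded mRNA libraries. Reads were aligned to mm10 (GRCm38) with STAR 2.4.0a and counted with featureCounts 1.4.5-p1, per the submitters' processing notes. The values the authors deposited are a score: normalised read counts, rounded to whole numbers by the authors. How they were scaled is not given in the sources used here. Depth was estimated from the steps between low values, searched from 0.7 to 2 units per read. Because the values are not raw counts, limma 3.58.1 in R 4.3.3 with a mean-variance trend was fitted to log2(value + 1) over 9 group means. Fold changes on that scale understate changes of low genes. The 15932 genes tested shared 1 Benjamini-Hochberg adjustment per comparison.

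Libraries were grouped by title. The members and lists were chosen with earlier results of these data known. Values in every library are given for the 12 genes of lowest p among those called, the 3 most abundant per kb, and Irf1, Stat2, Irf9 and Irf7, and for Cxcl10, which was added after its values were seen. At most 4 genes of lowest p are named per other list and comparison. Exon lengths and gene coordinates came from a GENCODE annotation of GRCm38, which matched 98.8% of identifiers. Alternatives were quantile normalisation, a pseudocount of 5, no filter, a replicate block, a fit of the compared groups alone, leaving out each replicate, both treatments of the conflicting labels, and leaving out libraries that stand apart. Array weights, libraries with pancreas transcripts and steps between times were added after seeing the data. The fit was tested on simulated data. The result of 1 gene of the signalling list is not reported here.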

Additional observations from a re-analysis of the deposited data

Results flagged for a closer look

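The gap between refed and caged food groups was not the same at the 4 times for 7 interferon-induced genes, by a test of that difference over time (limma F test, Benjamini-Hochberg over all genes tested). These were 18.9% of the 37 genes, where 9.97% of all genes were called. The count was 3 to 12 with 1 replicate left out at a time, and no call was kept by treatment label. The adjusted p was 0.00357 for Oasl1, 0.00389 for Ddx58, 0.0190 for Parp14, 0.0201 for Stat2, 0.0201 for Usp18, 0.0302 for Ifit1 and 0.0499 for Isg15. The call of Ifit1 was lost without any 1 of 5 libraries. In all 7 the refed livers were highest relative to caged food at 240 min, with log2 differences from 0.60 for Stat2 to 1.32 for Oasl1, each seen in 3 of 3 libraries titled refed. Refed minus caged food values of Ifit1 and Usp18 were -0.41 ± 0.26 and -0.09 ± 0.20 at 30 min and 0.45 ± 0.26 and 0.45 ± 0.20 at 60 min. At 120 min they were -0.14 ± 0.26 and -0.17 ± 0.20. None of these differences before 240 min was called. Groups of 3 libraries were too small for a test of single libraries that lie apart.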

How the results depend on the processing

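Of the 70 values called for the 37 genes, 0 changed sign under any alternative run, but values that were not called did. Against caged food at 240 min, 3 did so without refed 240 min replicate 1 (Gbp3 from 0.11 to -0.10, Gbp9 from 0.11 to -0.04 and Ifit2 from 0.16 to -0.05) and 5 by treatment label (Gbp2, Gbp3, Ifit2, Oas1a and Oasl2), and against fasted livers 6 did without that replicate, among them Irf7 from 0.01 to -0.14. Grouping by the treatment label had the most effect, and 47 of 53 calls for 14 single genes were then lost. It left 1 gene called at 60 min and 1 at 120 min against fasted livers, 0 at 240 min, 0 in the average, 1 and 0 against caged food at 60 and 120 min, 0 at 240 min, 2 in the average over time and 0 in the F test. Without the 4 libraries with pancreas transcripts the counts were 10 at 240 min against fasted livers, 14 at 240 min and 2 at 120 min against caged food, and 1 in the F test. Array weights gave 6, 8 and 16 at 60 min, 120 min and in the average against fasted livers, 4, 3 and 20 against caged food, and 13 in the F test. Quantile normalisation, no filter, and leaving out the 4 libraries that stood apart in earlier results each left 1 at 60 min against fasted livers, and the last also left 1 against caged food. Fitting only the groups compared gave 9 at 120 min against fasted livers and 1 at 60 min against caged food. Leaving out the libraries with conflicting labels gave 4 in the F test.

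With 1 replicate left out at a time, the counts against fasted livers ranged from 1 to 3 at 60 min, 1 to 6 at 120 min, 10 to 19 at 240 min and 3 to 8 in the average. Against caged food they ranged from 1 to 4, 1 to 2, 14 to 24 and 12 to 15, and in the F test from 3 to 12. At 30 min in both comparisons, and for caged food against fasted livers at each time and in the average, the count was 0 throughout (0 to 0).

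Replicate numbers do not pair the libraries: the residuals of 108 same-numbered pairs had a mean correlation of -0.0094, 7 pairs were over 0.1, and 8 of 27 libraries were closest to their own number. With the replicate number as a block, 1 gene was called at 60 min against fasted livers, and at 240 min 17 against fasted livers and 21 against caged food. The calls lost for single genes were Igtp at 60 min (adjusted p = 0.0663) and Irgm2 at 240 min against fasted livers (adjusted p = 0.0591), and Gbp6 at 240 min against caged food (adjusted p = 0.0542). Depth limits the statements on interferon transcripts, which lay at or near 0 reads.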

Other observations

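At 60 min, 7 of 63 other interferon-induced genes were higher (11.1%) in refed than in caged food livers and 1 was lower (1.59%), where 6.73% and 4.18% of all genes tested were. With the 2 libraries of conflicting labels grouped by the treatment label, which changes the shared estimate of spread, 3 were higher and 0 lower, namely Cxcl11, Gbp11 and Dtx3l. Cxcl11, a ligand of the same receptor as Cxcl10, differed by 1.15 ± 0.17 (limma, adjusted p = 8.67e-05), Gbp11, a guanylate-binding protein, by 1.68 ± 0.35 (adjusted p = 0.00238), Dtx3l, a ubiquitin ligase, by 0.36 ± 0.07 (adjusted p = 0.00220) and Eif2ak2 by 0.42 ± 0.11 (adjusted p = 0.0114). Cxcl11 was at 213, 218 and 220 in refed and at 99, 84 and 110 in caged food livers, and Gbp11 at 131, 251 and 351 and at 62, 59 and 94, with no overlap in either gene. Ifitm2, a membrane protein that blocks viral entry, was the 1 that fell, by 0.46 on the log2 scale (adjusted p = 0.0409). Its name was chosen after its value was seen. Among the sensing genes at 60 min Mavs, the mitochondrial adaptor of Ddx58 and Ifih1, differed by 0.37 ± 0.09 (adjusted p = 0.00822) and the ubiquitin ligase Traf6 by 0.40 ± 0.10 (adjusted p = 0.00955).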
